A study of Mus musculus with 48 samples.

Results

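The epithelial junction and identity genes are 37 genes whose gain marks the change of fibroblasts into epithelial cells during reprogramming. The members were taken by gene symbol from a fixed list with no cut on their values, but the list was chosen with earlier results of these data known. All 37 were found among the 24010 gene symbols measured. They were followed in 16 groups of 3 libraries of poly(A) RNA. The starting cells were mouse embryonic fibroblasts (MEFs) from transgenic mice with a doxycycline-inducible Oct4, Sox2, Klf4 and Myc cassette (OSKM), the Rosa26-M2rtTA activator and an Oct4-GFP reporter. In 3 arms, doxycycline at 1 µg/ml switched OSKM on together with added *Mettl3* (*Mettl3* OE), added *Mettl14* (*Mettl14* OE) or an empty vector (Control OE), and cells were taken on days 3, 6, 9, 12 and 15 of induction. MEFs of the same genotype without doxycycline served as the starting point. All cells carried the same inducible cassette, reporter and activator. Whole cultures were harvested with no sort stated, and no label says whether the 3 libraries of a group came from separate cultures, so p-values measure only the spread between these libraries.

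The change from mesenchymal to epithelial cells is an early stage of reprogramming. Fibroblasts hold each other loosely and move singly, whereas epithelial cells are joined side by side by adherens junctions, sealed near their apical edge by tight junctions and anchored by desmosomes to keratin filaments. Transcription factors of the ZEB, SNAI and TWIST families keep many of these genes silent in mesenchymal cells, often by binding E-box letters in their promoters, and Grainyhead-like, OVOL and ETS factors are known to hold them on in epithelia. The 37 members fall into 9 groups by role: cell adhesion molecules, claudins, other tight junction and polarity genes, simple keratins, desmosome genes, transcription factors, splicing regulators, trafficking genes, and surface proteases with their inhibitors.

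Levels are FPKM (fragments scaled to transcript length and to the fragments mapped in a library), as deposited unless stated. Depth estimated from the smallest values was 12.95 to 37.26 M fragments per library (median 23.42), at which 1 fragment on a transcript of 2 kb is worth 0.0386 to 0.0134 FPKM. The deposited values come from 3 tables joined side by side (MEFs with day 3, days 6 with 9, days 12 with 15), so steps were called only inside a table, and each day was set against MEFs after a median-ratio scaling of all 48 libraries. Added *Mettl3* was measured at 1078 to 2919 FPKM across the 15 libraries of that arm, against 3.33 to 6.79 FPKM in the 33 others, and added *Mettl14* at 184 to 476 FPKM against 4.30 to 7.47 FPKM, as the labels say. On the values as deposited the median log2 change from MEFs over all genes was 0.09, 0.94, 0.90, 0.86 and 0.94 on days 3, 6, 9, 12 and 15 of Control OE, against 0.00, 0.13, 0.19, 0.24 and 0.28 after scaling, so deposited values of days 6 to 15 stand high beside those of MEFs and day 3. The summed scaled level of 8 fibroblast markers was 2409 to 2703 FPKM in Control OE on day 15 and 119.9 to 126 FPKM on day 3, against 336 to 365 FPKM in MEFs. After scaling, 7 of the 8 were called higher than MEFs on day 15 and 7 lower on day 3. In bulk RNA, more cells of a type and more RNA per cell cannot be told apart. Some libraries stood apart on many members at once: the library labelled Control OE day 6 replicate 1 was the highest of its 3 in 31 of 37 members, *Mettl3* OE day 6 replicate 1 was the lowest of its group in 32, *Mettl14* OE day 6 replicate 1 the lowest in 30, and *Mettl14* OE day 9 replicate 1 the highest in 36. The members of a library therefore moved together, and a count of members is not a count of independent observations.

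The 250 bases before the start site are shown for 6 members. *Dsp* and *Krt8* are among the earliest in the order described further on, and *Krt18* is among the latest. *Cldn4* and *Cgn* were called between arms, and *Cldn3* is the neighbour of *Cldn4*. The sequences come from the RefSeq promoter table on GRCm38.p6, a later build than the mm9 of the deposited values, and are written 5′ to 3′ on the strand of the gene. Capitals mark the letters CAGGTG (the E-box that ZEB and SNAI factors bind), AACCGG (the core of the Grainyhead-like site) and CACCC (a KLF box), on either strand, so that an E-box on the other strand reads CACCTG. These windows are *Krt8* (chr15:102004343-102004592, reverse strand), *Krt18* (chr15:102027966-102028215, forward strand), *Dsp* (chr13:38151044-38151293, forward strand), *Cldn4* (chr5:134946935-134947184, reverse strand), *Cldn3* (chr5:134985964-134986213, forward strand) and *Cgn* (chr3:94786483-94786732, reverse strand).
Krt8: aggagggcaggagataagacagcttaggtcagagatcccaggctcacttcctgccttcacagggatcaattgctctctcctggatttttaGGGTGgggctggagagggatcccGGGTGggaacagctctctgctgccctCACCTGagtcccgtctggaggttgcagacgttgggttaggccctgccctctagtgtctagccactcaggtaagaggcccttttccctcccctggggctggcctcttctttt
Krt18: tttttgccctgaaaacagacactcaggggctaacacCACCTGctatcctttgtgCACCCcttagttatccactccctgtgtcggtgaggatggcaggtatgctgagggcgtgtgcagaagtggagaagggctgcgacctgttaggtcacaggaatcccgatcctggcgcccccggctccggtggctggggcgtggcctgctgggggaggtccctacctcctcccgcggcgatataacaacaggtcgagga
Dsp: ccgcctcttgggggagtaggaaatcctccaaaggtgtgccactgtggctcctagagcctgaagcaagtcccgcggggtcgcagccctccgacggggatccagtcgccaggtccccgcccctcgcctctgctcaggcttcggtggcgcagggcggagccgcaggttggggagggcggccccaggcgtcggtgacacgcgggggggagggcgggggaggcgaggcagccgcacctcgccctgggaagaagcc
Cldn4: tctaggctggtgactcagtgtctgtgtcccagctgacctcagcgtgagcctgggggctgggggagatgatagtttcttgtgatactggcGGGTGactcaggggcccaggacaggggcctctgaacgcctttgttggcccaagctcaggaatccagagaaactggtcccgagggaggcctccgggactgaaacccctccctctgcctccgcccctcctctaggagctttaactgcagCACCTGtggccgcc
Cldn3: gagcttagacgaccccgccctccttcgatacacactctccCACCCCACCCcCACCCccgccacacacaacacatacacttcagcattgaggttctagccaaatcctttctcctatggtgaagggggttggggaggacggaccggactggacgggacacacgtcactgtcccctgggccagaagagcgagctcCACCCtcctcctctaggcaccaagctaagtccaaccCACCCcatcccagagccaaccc
Cgn: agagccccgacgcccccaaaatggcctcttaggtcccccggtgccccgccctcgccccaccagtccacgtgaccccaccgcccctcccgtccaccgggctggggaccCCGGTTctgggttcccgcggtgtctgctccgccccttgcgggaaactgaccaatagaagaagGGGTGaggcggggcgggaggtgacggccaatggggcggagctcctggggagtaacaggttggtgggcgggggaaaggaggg

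*Krt8* and *Krt18*, whose proteins pair into one filament, lie 23.7 kb apart on chromosome 15, and each window holds 1 E-box. *Cldn4* and *Cldn3* lie 39.1 kb apart on chromosome 5. The *Cldn4* window holds 1 E-box and the *Cldn3* window none. Neither of the other windows shown holds an E-box, and *Cgn* holds the Grainyhead-like letters once. The table had an entry for 22 of the 37 members (28 promoters, since a gene can have several starts). The E-box letters stood in 18 of these 28 promoters (64.3%), against 17.2% of all 32851 promoters of that length, and by gene in 16 of 22 members (72.7%) against 19.4% of all genes with an entry. The Grainyhead-like letters stood in 5 of 28 (17.9%) against 5.62% of all promoters, and the KLF box in 19 of 28 (67.9%) against 52%. The 3 motifs can share bases, and a match says only that these letters are present.

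In Control OE, all 36 members that could be tested were above MEFs by day 12. Between MEFs and a given day, a member was called higher at a fold of FPKM + 1 of at least 1.5 and an adjusted p under 0.05 (limma, Benjamini-Hochberg over all genes). On this rule 11, 31, 35, 36 and 36 members were higher on days 3, 6, 9, 12 and 15. The share of all 12738 genes called higher was 12.3%, 28.7%, 33.2%, 35.4% and 38.5% on these days. The median log2 change of the members was 0.41, 1.51, 2.67, 3.28 and 3.42, beside 0.00, 0.13, 0.19, 0.24 and 0.28 over all genes. The earliest days depend on how low values are treated: with a pseudocount of 0.1 in place of 1, 28 members were higher on day 3, and with 0.5, 20 were.

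Taking the first day from which a member stayed called, onset fell on day 3 for 11 members, day 6 for 20, day 9 for 4 and day 12 for 1. The day 3 set spans structural and regulatory genes: *Dsp* (4.93 on the log2 scale), *Krt8* (4.63), *Pkp1* (4.07), *Krt19* (3.45), *Spint2* (2.16), *F11r* (2.06), *Cdh1* (1.89), *St14* (1.28), *Esrp2* (0.86), *Ovol1* (0.79) and *Dsc2* (0.74). No claudin was among them. Day 6 brought all 4 claudins, *Epcam*, *Krt7*, *Esrp1*, both trafficking genes, *Elf3*, *Ehf*, *Spint1*, the desmosome genes *Pkp3* and *Dsg2*, and 6 of the 8 other tight junction and polarity genes (*Ocln*, *Marveld3*, *Lsr*, *Tjp3*, *Cgn* and *Crb3*). *Krt18*, *Grhl1*, *Marveld2* and *Prss8* followed on day 9 and *Cdh3* on day 12. *Grhl2* stayed too low to be tested. A rule on the level alone, all 3 libraries at 1 FPKM or more and on every later day, put 8, 20, 7 and 1 members at days 3, 6, 9 and 12, with no onset for 1.

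A finer order comes from the half-maximum day, the interpolated day on which the scaled group mean first passed 50% of its highest value in the arm, with MEFs at day 0. For the first and the last members it is given with its range over leaving out 1 library at a time. In Control OE the earliest were *Dsp* at 2.72 (2.45 to 2.86), *F11r* at 5.09 (5.0 to 5.24) and *Krt8* at 5.83 (5.68 to 5.98). *Krt19* (6.15), *Crb3* (6.58), *Spint2* (6.61), *Lsr* (6.73), *Esrp2* (6.88), *Cdh1* (6.94), *Ovol1* (7.30), *Ap1m2* (7.31), *Cldn7* (7.42), *Pkp1* (7.45), *St14* (7.62), *Ehf* (7.93) and *Esrp1* (7.96) came next. Those between day 8 and day 9 were *Ocln* (8.03), *Marveld3* (8.12), *Marveld2* (8.23), *Cgn* (8.34), *Grhl2* (8.34), *Dsc2* (8.36), *Tjp3* (8.39), *Rab25* (8.48), *Pkp3* (8.52), *Cldn6* (8.62), *Cldn3* (8.81), *Spint1* (8.85) and *Dsg2* (8.96). *Epcam* (9.06), *Grhl1* (9.80), *Cldn4* (9.88), *Cdh3* (10.27) and *Elf3* (10.43) were later, and the last were *Krt7* at 10.47 (10.11 to 10.75), *Krt18* at 11.30 (10.95 to 11.62) and *Prss8* at 11.48 (11.31 to 11.71). The order is coarse: 31 of the 36 neighbouring pairs had overlapping ranges, the median range was 0.41 days wide and the widest, of *Ovol1*, 2.59 days. The place of *Dsp* at the head rests on the scaling, since its half-maximum day was 5.18 on the values as deposited, where the median of the members moved less (8.23 scaled, 7.77 as deposited).

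**Figure D1:**
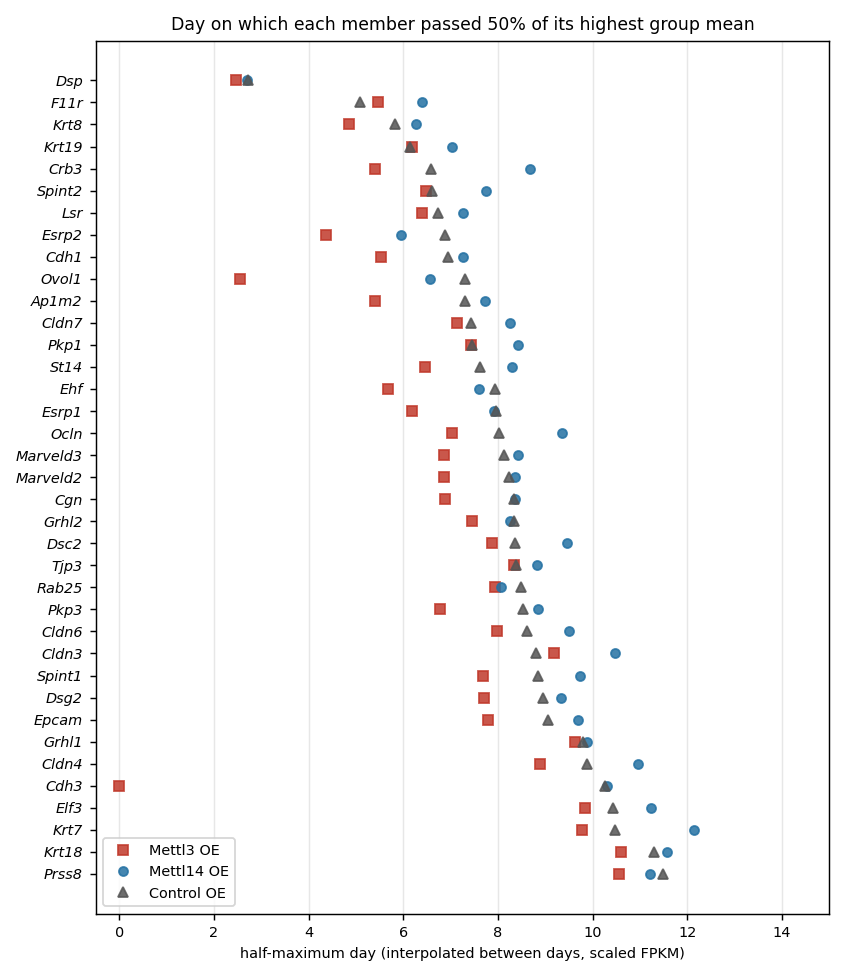
Half-maximum day of each of the 37 members in *Mettl3* OE (squares), *Mettl14* OE (circles) and Control OE (triangles), with members ordered from top to bottom by Control OE. *Dsp* is first in Control OE at day 2.72 and *Prss8* last at day 11.48, and the *Mettl3* OE squares lie left of the Control OE triangles in 34 of 37 members. These include *Cdh3*, which had no called onset in *Mettl3* OE and whose square there lies at the MEF point, so it does not show an earlier rise.

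The adhesion molecules at the cell surface differed in when they began. *Cdh1* encodes E-cadherin, the adhesion receptor of epithelial adherens junctions. It lay at 0.0167, 0.0397 and 0.0519 FPKM in the 3 MEF libraries, then 2.07, 1.98 and 1.72 FPKM on day 3, 38.3, 31.9 and 29.8 FPKM on day 6, 43.6, 49.9 and 48.1 FPKM on day 9, 53.7, 51.3 and 62.7 FPKM on day 12 and 67.6, 61.4 and 75.2 FPKM on day 15. Its libraries did not overlap between MEFs and any Control OE day, and the change was called from day 3 (log2 1.89, SE 0.10, adjusted p = 6.34e-19) to day 15 (log2 5.81, SE 0.10, adjusted p = 1.17e-34). *Epcam*, an epithelial adhesion glycoprotein of the cell surface, lay at 0, 0 and 0.0239 FPKM in the 3 MEF libraries, then 0.0815, 0.129 and 0.0548 FPKM on day 3, 5.89, 3.84 and 2.93 FPKM on day 6, 10.5, 11.8 and 10.03 FPKM on day 9, 17.99, 14.6 and 20.2 FPKM on day 12 and 21.5, 19.6 and 21.8 FPKM on day 15. No library passed 0.129 FPKM on day 3, and the call came with day 6 (log2 2.00, SE 0.13, adjusted p = 3.47e-16), when replicate 1 was the highest of the 3. P-cadherin, encoded by *Cdh3* and known from basal epithelial layers, went the other way first. *Cdh3* lay at 1.17, 0.716 and 0.548 FPKM in the 3 MEF libraries, then 0.263, 0.202 and 0.262 FPKM on day 3, 1.25, 1.12 and 0.958 FPKM on day 6, 1.49, 1.91 and 2.07 FPKM on day 9, 3.87, 3.67 and 2.94 FPKM on day 12 and 4.53, 4.51 and 6.3 FPKM on day 15. Its 3 day 3 libraries were all below the 3 MEF libraries (log2 -0.77, SE 0.15, adjusted p = 1.97e-05), and it was called higher only from day 12 (log2 0.81, SE 0.15, adjusted p = 4.31e-06).

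Claudins form the seal of the tight junction, and none of the 4 members of this family passed 0.395 FPKM in a Control OE library on day 3. *Cldn4* is the one with the highest level on day 15. It lay at 0.219, 0.0637 and 0.0277 FPKM in the 3 MEF libraries, then 0.26, 0.261 and 0.222 FPKM on day 3, 17.4, 10.8 and 9.11 FPKM on day 6, 48.4, 64.2 and 60.1 FPKM on day 9, 104, 85.4 and 108 FPKM on day 12 and 141, 137 and 137 FPKM on day 15. The gain over MEFs was called from day 6 (log2 3.09, SE 0.17, adjusted p = 5.81e-19) and reached a log2 change of 6.68 on day 15, the largest of any member after *Krt8*. Its mean on day 15 was 138 ± 2.32 FPKM (SD, n = 3), 59.5 ± 5.32 for *Cldn3*, 24.1 ± 2.23 for *Cldn7* and 7.59 ± 0.423 for *Cldn6*. Day 6 libraries of this family spread widely, with *Cldn6* at 2.41, 0.551 and 0.518 FPKM and *Cldn7* at 11.3, 6.72 and 5.32 FPKM, replicate 1 highest in both.

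Among the other tight junction and polarity genes, *F11r* had the highest level in MEFs. *F11r* encodes JAM-A, an immunoglobulin-type adhesion protein at the junction. It lay at 0.865, 0.994 and 0.813 FPKM in the 3 MEF libraries, then 6.02, 6.14 and 6.33 FPKM on day 3, 41.5, 33.0 and 33.4 FPKM on day 6, 34.4, 40.0 and 39.6 FPKM on day 9, 40.0, 37.02 and 41.8 FPKM on day 12 and 47.4, 48.1 and 54.3 FPKM on day 15. On day 6 its libraries already overlapped those of days 9 and 12, with a half-maximum day of 5.09. The remaining 7 genes of this group were listed at 0.602 FPKM or less in every MEF library and had lower day 15 means: *Cgn* (cingulin, which links the junction to the cytoskeleton) 13.5 ± 1.55, *Crb3* (an apical polarity protein of the Crumbs family) 11.7 ± 0.617, *Ocln* (occludin) 8.2 ± 0.272, *Lsr* (which recruits tricellulin to corners where 3 cells meet) 7.73 ± 0.375, *Tjp3* (the scaffold ZO-3) 3.86 ± 0.0531, *Marveld3* (a tight junction membrane protein) 3.04 ± 0.0434 and *Marveld2* (tricellulin) 1.98 ± 0.371 FPKM (SD, n = 3 each). *Crb3* and *Lsr* were the earliest of these 7 by half-maximum day.

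Keratins 8, 18, 19 and 7 build the filaments of simple epithelia, with a type II keratin (8 or 7) pairing with a type I keratin (18 or 19). *Krt8* lay at 0.705, 0.469 and 0.444 FPKM in the 3 MEF libraries, then 35.0, 25.7 and 30.4 FPKM on day 3, 239, 250.2 and 239.8 FPKM on day 6, 340.5, 401 and 379.7 FPKM on day 9, 389, 344 and 437 FPKM on day 12 and 432, 376 and 395 FPKM on day 15. Its mean, per length, was the highest of the 37 members from day 3 onward, and so was its change on day 15 (log2 7.51, SE 0.16, adjusted p = 8.13e-32). *Krt18* lay at 2.66, 3.96 and 4.32 FPKM in the 3 MEF libraries, then 2.7, 2.02 and 1.51 FPKM on day 3, 15.7, 10.3 and 10.7 FPKM on day 6, 22.2, 28.0 and 26.0 FPKM on day 9, 72.6, 62.4 and 90.4 FPKM on day 12 and 156, 121 and 114 FPKM on day 15. It was at 2.66 FPKM or more in every MEF library, was lower than MEFs on day 3 after scaling, with overlap of 1 library on the values as deposited (log2 -0.78, SE 0.19, adjusted p = 0.000563), and was called higher only from day 9 (log2 1.63, SE 0.19, adjusted p = 8.32e-10). *Krt7* lay at 0.0511, 0.149 and 0.42 FPKM in the 3 MEF libraries, then 0.304, 0.349 and 0.483 FPKM on day 3, 10.9, 5.69 and 4.57 FPKM on day 6, 23.0, 38.6 and 38.1 FPKM on day 9, 61.1, 46.6 and 59.1 FPKM on day 12 and 99.5, 84.7 and 82.0 FPKM on day 15. Its day 9 values were lower in replicate 1 than in the others, while on day 6 replicate 1 was the highest. *Krt19* followed *Krt8* rather than *Krt18* in time: it lay at 32.2, 27.7 and 27.4 FPKM on day 3 of Control OE, against 2.06, 1.24 and 2.46 FPKM in MEFs (log2 3.45, SE 0.15, adjusted p = 3.36e-21).

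*Krt8* and *Krt18* pair as proteins, so their ratio of FPKM was followed too. *Krt8* over *Krt18* was 0.265, 0.119 and 0.103 in the 3 MEF libraries. In Control OE the libraries of day 3 had ratios of 13.0, 12.7 and 20.1, those of day 6 15.3, 24.3 and 22.4 and those of day 9 15.3, 14.3 and 14.6. The ratio was 5.35, 5.52 and 4.83 on day 12 and 2.77, 3.11 and 3.47 on day 15. Thus *Krt18* exceeded *Krt8* in MEFs, *Krt8* exceeded *Krt18* on every day of doxycycline, and the excess was smaller on days 12 and 15 than on days 3 to 9 with no overlap of libraries. On day 6 the ratio was 33.5, 39.4 and 42.8 in *Mettl3* OE, against 15.3, 24.3 and 22.4 in Control OE, with every *Mettl3* OE library above every Control OE library. By day 15 it was 3.64, 3.5 and 3.83 in *Mettl3* OE, against 2.77, 3.11 and 3.47 in Control OE. These ratios are descriptions and were not tested.

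**Figure D2:**
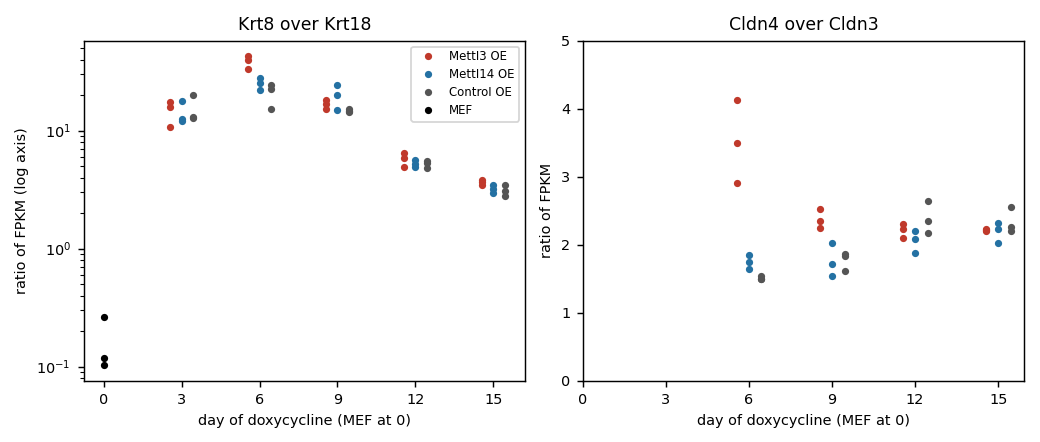
Ratio of FPKM in each library for *Krt8* over *Krt18* (left, log axis, MEFs at day 0) and *Cldn4* over *Cldn3* (right, days 6 to 15) in *Mettl3* OE, *Mettl14* OE and Control OE. The keratin ratio was 0.103 to 0.265 in MEFs and 12.7 to 24.3 in Control OE on days 3 to 9, and the claudin ratio on day 6 was 2.90 to 4.12 in *Mettl3* OE and 1.49 to 1.54 in Control OE.

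Desmosome genes rose by very different amounts on day 3. *Dsp* encodes desmoplakin, which ties keratin filaments to the desmosome. It lay at 0.179, 0.12 and 0.116 FPKM in the 3 MEF libraries, then 25.2, 22.6 and 24.3 FPKM on day 3, 39.0, 46.1 and 47.6 FPKM on day 6, 47.1, 50.01 and 49.7 FPKM on day 9, 65.8, 56.4 and 80.3 FPKM on day 12 and 69.9, 67.1 and 95.3 FPKM on day 15. Its jump on day 3 was the largest of the members (log2 4.93, SE 0.12, adjusted p = 1.89e-29), and scaled, its day 3 mean was already 55.2% of that on day 15. *Pkp1*, a plakophilin of the desmosomal plaque, lay at 11.9, 10.6 and 9.92 FPKM on day 3 of Control OE, against 0.0328, 0.0312 and 0.0102 FPKM in MEFs (log2 4.07, SE 0.11, adjusted p = 1e-28). By contrast *Pkp3*, the other plakophilin, and the desmosomal cadherin *Dsg2* were at 0.376 FPKM or less in every Control OE library of day 3, and the cadherin *Dsc2* lay at 1.44, 0.987 and 1.5 FPKM. On day 15 the 3 averaged 11.4 ± 1.57, 15.2 ± 0.858 and 13.5 ± 0.638 FPKM (*Pkp3*, *Dsg2* and *Dsc2*, SD, n = 3 each).

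The transcription factors began at different times. *Elf3*, an ETS factor of epithelia, was the highest of them on day 15. It lay at 0.0406, 0.0784 and 0 FPKM in the 3 MEF libraries, then 0.109, 0.207 and 0 FPKM on day 3, 12.8, 3.09 and 2.61 FPKM on day 6, 8.33, 10.7 and 11.2 FPKM on day 9, 15.9, 15.5 and 17.6 FPKM on day 12 and 27.0, 25.8 and 25.9 FPKM on day 15. The day 6 libraries disagreed, with replicate 1 far above the others. *Ovol1*, a zinc finger factor of epithelial differentiation, was the only factor called on day 3 (log2 0.79, SE 0.11, adjusted p = 1.65e-07), at 0.599, 0.531 and 0.486 FPKM against 0.0261, 0.0749 and 0 FPKM in MEFs. It never passed 2.74 FPKM in Control OE. *Ehf*, another ETS factor, averaged 2.05 ± 0.508 FPKM on day 6 and 6.15 ± 0.411 FPKM on day 15. The Grainyhead-like factors were lower: *Grhl1*, listed at 0 in the 3 MEF libraries, averaged 2.42 ± 0.519 FPKM on day 15, and *Grhl2* lay at 0.808, 0.841 and 1.06 FPKM on day 15, against 0.0148, 0.00704 and 0.0552 FPKM in MEFs. Every *Grhl2* library of days 6 to 15 lay above every MEF library, yet it stayed under the minimum for testing.

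*Esrp1* and *Esrp2* steer alternative splicing toward epithelial isoforms. *Esrp1* lay at 0.0933, 0 and 0 FPKM in the 3 MEF libraries, then 0.0298, 0.0316 and 0 FPKM on day 3, 2.24, 1.9 and 1.57 FPKM on day 6, 4.25, 4.14 and 3.91 FPKM on day 9, 5.87, 5.42 and 6.9 FPKM on day 12 and 5.14, 4.4 and 5.96 FPKM on day 15. *Esrp2* had its onset earlier, with 0.884, 0.508 and 0.982 FPKM on day 3 against 0.256, 0.0637 and 0.0535 FPKM in MEFs (log2 0.86, SE 0.14, adjusted p = 1.35e-06), while *Esrp1* was called from day 6 (log2 1.20, SE 0.13, adjusted p = 7.78e-11). Both had their highest scaled mean on day 12 and a lower one on day 15. Of the trafficking genes, *Rab25*, a small GTPase of recycling endosomes, was listed at 0 in the 3 MEF libraries, then 0, 0.0712 and 0.307 FPKM on day 3, 0.515, 1.22 and 0.538 FPKM on day 6, 2.33, 3.72 and 2.32 FPKM on day 9, 3.93, 4.87 and 4.29 FPKM on day 12 and 4.87, 4.39 and 4.75 FPKM on day 15. *Ap1m2*, the medium subunit of the epithelial adaptor complex AP-1B, averaged 1.95 ± 0.594 FPKM on day 6 and 4.65 ± 0.212 FPKM on day 15.

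Matriptase (*St14*) and prostasin (*Prss8*) are serine proteases of the epithelial surface, and *Spint1* and *Spint2* encode their inhibitors HAI-1 and HAI-2. *Spint2* lay at 0.326, 0.224 and 0.291 FPKM in the 3 MEF libraries, then 3.71, 3.25 and 4.05 FPKM on day 3, 45.8, 34.1 and 34.9 FPKM on day 6, 64.5, 73.6 and 76.9 FPKM on day 9, 64.6, 62.9 and 69.7 FPKM on day 12 and 80.8, 81.8 and 78.2 FPKM on day 15. The inhibitor *Spint2* and the protease *St14* had their onset on day 3 (2.16 and 1.28 on the log2 scale), *Spint1* on day 6 and *Prss8* on day 9. *Prss8* was the last of the 37 members by half-maximum day. It lay at 0.0852, 0.0412 and 0.0268 FPKM in the 3 MEF libraries, then 0.0229, 0.181 and 0.0308 FPKM on day 3, 0.43, 0.216 and 0.343 FPKM on day 6, 1.05, 1.55 and 1.36 FPKM on day 9, 2.44, 1.97 and 2.59 FPKM on day 12 and 4.4, 4.46 and 4.42 FPKM on day 15. All 4 genes rose in the step from day 6 to 9 described next, *Spint1* by 1.17 and *Prss8* by 0.80 on the log2 scale.

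**Figure D3:**
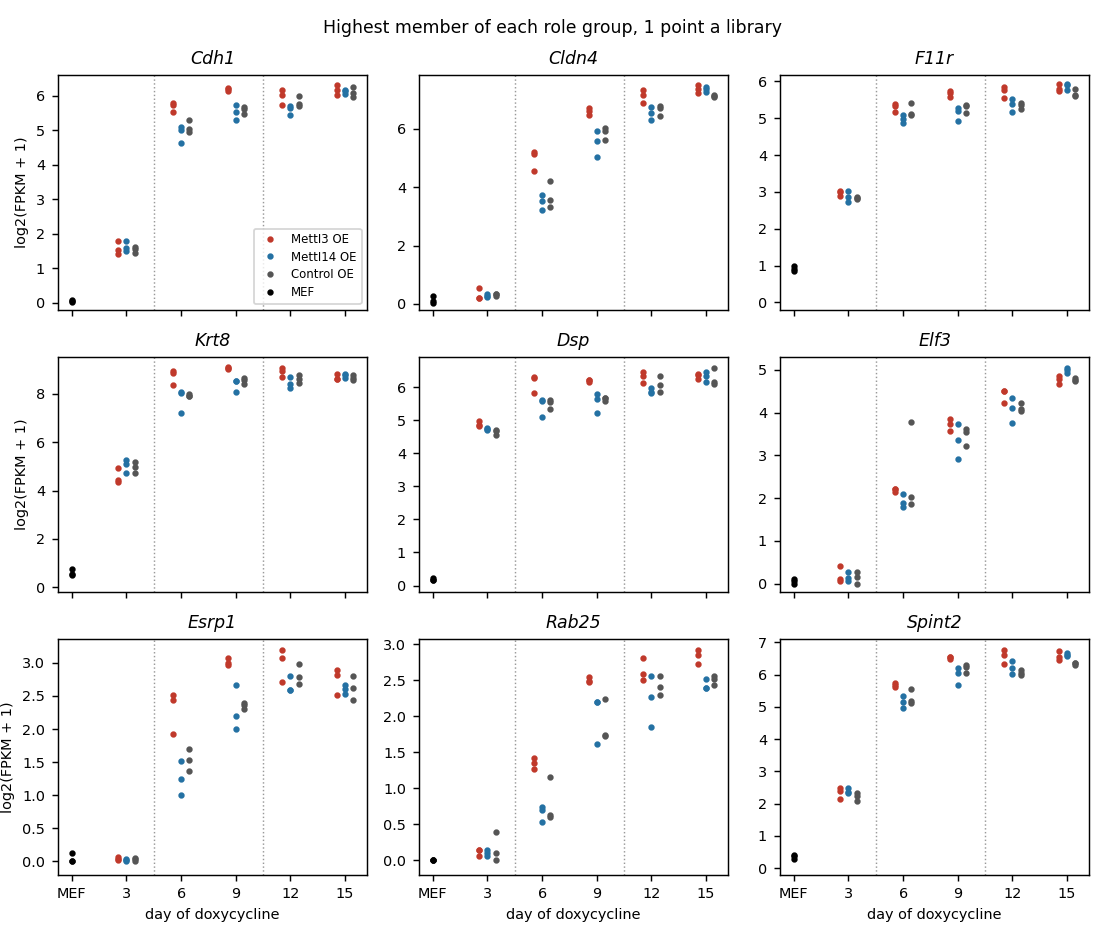
log2(FPKM + 1) in every library for the member with the highest day 15 level in each of the 9 role groups, by day of doxycycline, in *Mettl3* OE, *Mettl14* OE, Control OE and MEFs, with dotted lines where the deposited tables join. *Krt8* and *Dsp* are already high on day 3 (25.7 to 35.0 and 22.6 to 25.2 FPKM in Control OE), whereas *Cldn4*, *Elf3* and *Esrp1* rise after it.

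Within the tables the members' rise can be read on the values as deposited. From MEFs to day 3 in Control OE, 10 of 36 members rose and 1, *Krt18* (log2 -0.59, SE 0.20, adjusted p = 0.0138), fell, beside 13% of all genes that rose and 7.4% that fell. The step from day 6 to 9 was the broad one, with 23 members that rose and 0 that fell, where 6.27% of all genes rose. The median log2 change was 0.81 in the members and -0.06 over all genes. *Cldn4* (log2 2.16, SE 0.18, adjusted p = 7.89e-12), *Krt7* (log2 2.13, SE 0.25, adjusted p = 1.99e-08) and *Cldn3* (log2 1.89, SE 0.16, adjusted p = 1.46e-11) led it. All 4 claudins, all 4 simple keratins and all 4 surface protease genes rose, against 4 of 8 other tight junction and polarity genes, 2 of 5 desmosome genes, 2 of 4 transcription factors tested, 1 of 2 splicing regulators, 1 of 2 trafficking genes and 1 of 3 adhesion molecules. The rise was not confined to epithelial genes. All fibroblast markers but *Col1a1* (0.49, not called) rose in this step too, led by *Lum* (2.71), *Postn* (2.18) and *Thy1* (1.79). From day 12 to 15 only *Krt18* (log2 0.79, SE 0.20, adjusted p = 0.00673) and *Prss8* (log2 0.71, SE 0.12, adjusted p = 5.18e-05) rose, beside 2.99% of all genes. These are the last 2 members by half-maximum day. The scaled median member stood at 5.09%, 27.55%, 59.96% and 89.82% of its day 15 level on days 3, 6, 9 and 12.

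The same steps were read in the other arms. In *Mettl3* OE, 11 members rose from MEFs to day 3 (13.2% of all genes), 22 from day 6 to 9 (8.82%) and 0 from day 12 to 15 (1.3%; 1 member had an unadjusted p under 0.05 for a difference from Control OE in that step). In *Mettl14* OE, 10 rose from MEFs to day 3 (13.1%), 29 from day 6 to 9 (6.42%) and 9 from day 12 to 15 (4.31%; 5 without day 12 replicate 3). From MEFs to day 3, *Cdh3* (-0.72 on the log2 scale) and *Krt18* (-0.82) fell in *Mettl3* OE, and *Cdh3* (-0.66) fell in *Mettl14* OE. The difference between arms in a step was tested directly, and 0 of 36 members passed it in limma for *Mettl3* OE from day 6 to 9 (0.526% of all genes), *Mettl3* OE from day 12 to 15 (0.0471%), *Mettl14* OE from day 6 to 9 (0%) or *Mettl14* OE from day 12 to 15 (0.00785%). At an unadjusted p under 0.05, a looser cut than that of these shares, the counts were 3, 1, 1 and 2 members. No share of all genes is given at that cut.

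**Figure D4:**
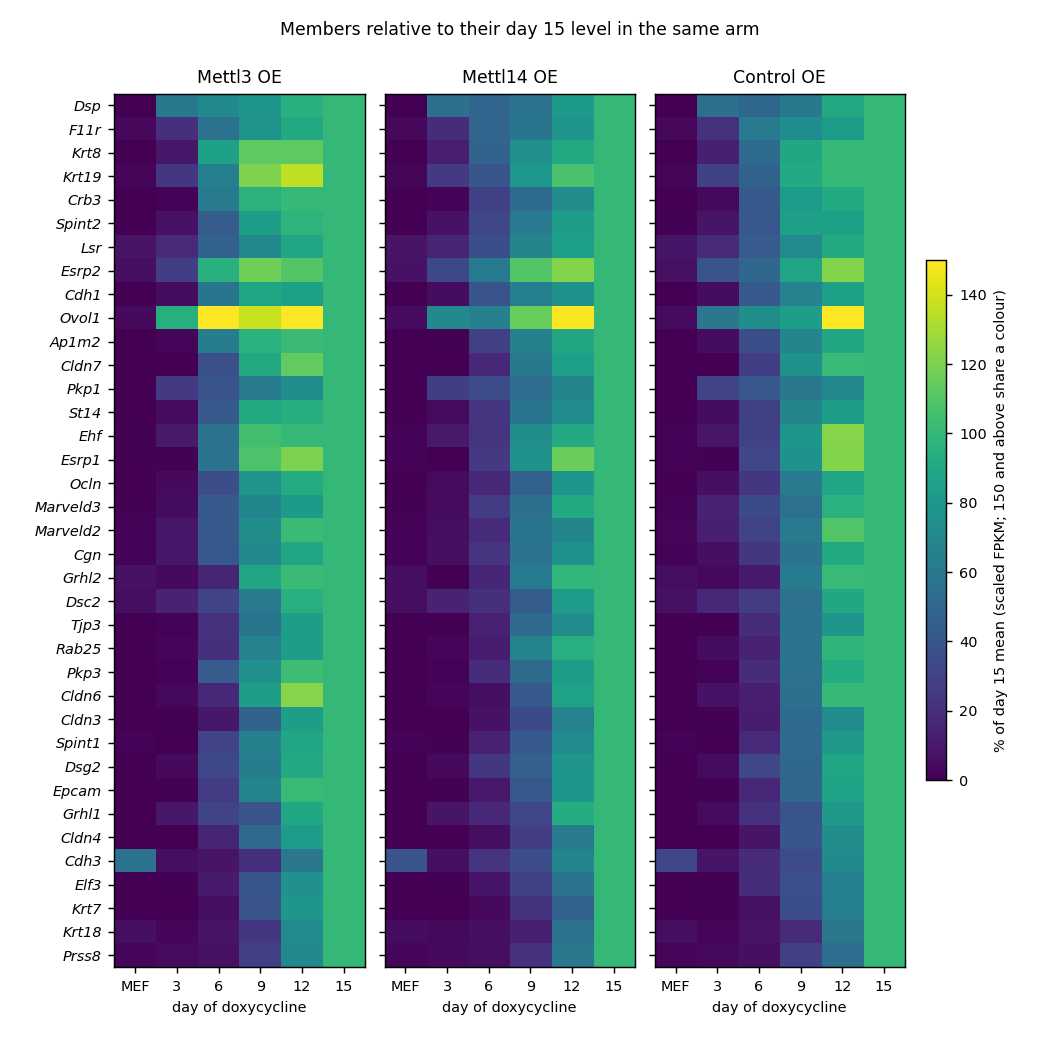
Scaled group mean of each of the 37 members as a percentage of its day 15 mean in the same arm, for MEFs and days 3 to 15 in *Mettl3* OE (left), *Mettl14* OE (middle) and Control OE (right), with members ordered by half-maximum day in Control OE. On day 6 the median member stood at 38.8% in *Mettl3* OE, 22.8% in *Mettl14* OE and 27.6% in Control OE.

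Genes of the same structures that are not members were read from lists chosen with earlier results of these data known. From MEFs to day 3 in Control OE, 5 of 14 other adherens junction and desmosome genes rose, among them *Perp* (5.12 on the log2 scale), a desmosome membrane protein, the envelope protein *Evpl* (2.50) and plakoglobin, *Jup* (2.46). Of 16 other tight junction and polarity partners 7 rose, among them the polarity kinase *Prkci* (1.54). Of 12 other epithelial regulators and surface genes 3 rose, the keratin *Krt80* (3.06), the surface glycoprotein *Cd24a* (2.98) and the kinase *Mapk13* (1.03), and the transcription factor *Klf5* fell by 0.86 on the log2 scale. In the other direction, 6 of 10 mesenchymal repressors and markers fell, including the repressors *Twist2* (-2.71), *Snai2* (-1.41) and *Zeb2* (-0.999) and fibronectin, *Fn1* (-1.31). From day 6 to 9, 2 of the 14 adherens junction and desmosome genes and 4 of the 12 epithelial regulators rose. Of the 16 tight junction partners 4 rose (the claudin *Cldn23*, 1.24, the largest). The mesenchymal genes are not reported here for this step.

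Markers of other epithelial and non-epithelial cells were read beside the members, with sums of scaled FPKM because MEFs and day 15 lie in different tables. The 9 keratinocyte markers summed to 521 to 768 in Control OE on day 15, against 12.1 to 13.5 in MEFs, and 6 of 8 tested were called higher and 1 lower. The 8 trophoblast markers summed to 18 to 24.1 in Control OE on day 15, against 1.17 to 1.24 in MEFs (5 of 5 tested higher), and the 8 pluripotency markers to 26.5 to 32.7 in Control OE, against 0.253 to 1.05 in MEFs (6 of 6 higher). The 8 primitive endoderm markers had no higher sum, at 30.0 to 31.6 in Control OE on day 15 against 32.3 to 33.7 in MEFs, with 1 of 4 tested called higher. The sum hides markers that moved apart. *Lama1* was called higher (1.77 on the log2 scale), while *Gata4* (0.51), *Gata6* (0.24) and *Pdgfra* (-0.34) were not called. The 7 macrophage markers summed to 24.3 to 35.8 in Control OE on day 15, against 11.6 to 13.0 in MEFs (4 of 5 higher), with *Aif1* listed at 0 on day 15. The 6 endothelial markers summed to 15.5 to 16.4 in Control OE on day 15, against 1.07 to 1.53 in MEFs, a sum that *Tek* carried. As deposited, *Tek* averaged 15.6 FPKM on day 15 and 6.47 FPKM on day 3 of Control OE, against 0.0355 FPKM in MEFs, while *Cdh5*, *Pecam1*, *Tie1* and *Kdr* averaged 0.982, 0.960, 0.842 and 0.245 FPKM on day 15 and *Emcn* was listed at 0. From day 3 onward the keratinocyte sum exceeded the trophoblast, primitive endoderm, pluripotency, macrophage and endothelial sums. Their part in the members' rise was not tested.

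Against Control OE, *Mettl3* OE had more members called higher on days 6 and 9 than on days 12 and 15. Its mean was the higher one in 33, 36, 35 and 30 of 37 members on days 6, 9, 12 and 15. On day 3, 0 of the 10 members that passed the filter were called in limma (2 at an unadjusted p under 0.05), where 1.58% of all genes were called. On day 6, 12 of 33 were higher and 1 lower, beside 0.806% and 0.788% of all genes. On day 9, 15 of 36 were higher and 1 lower, beside 1.3% and 1.48%. On day 12, 2 were higher and 0 lower, beside 0.796% of all genes higher. On day 15, 0 were higher and 1 lower, beside 1.48% of all genes lower, although 16 members had an unadjusted p under 0.05. The shares of all genes are of adjusted calls, and those at the unadjusted cut are not given. The median log2 difference of the members was 0.60 on day 6 and 0.53 on day 9, beside -0.02 and 0.03 over all genes. All 3 *Mettl3* OE libraries lay above all 3 Control OE libraries in 18, 30, 15 and 12 of 37 members on days 6, 9, 12 and 15. They lay below all 3 in 1, 1, 1 and 2 members on these days. The share of all genes is not given for these counts, which describe the members only.

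In a test chosen after these values were seen, over all 48 libraries, the difference between these arms was larger on day 6 than on day 15 in 10 of 36 members (beside 3.86% of all genes called in either direction) and larger on day 9 than on day 15 in 0 (beside 1.16%).

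The day 6 count depends on single libraries. It was 12 with all libraries, 15 without *Mettl3* OE replicate 1, 0 without *Mettl3* OE replicate 2 or 3, 15 without Control OE replicate 1, 2 without Control OE replicate 2 and 1 without Control OE replicate 3. On day 9 the count of 15 became 10, 6 and 11 without *Mettl3* OE replicate 1, 2 and 3, and 9, 16 and 9 without Control OE replicate 1, 2 and 3. The 2 calls of day 12, *Crb3* (log2 0.66, SE 0.14, adjusted p = 0.024) and *Krt7* (log2 0.61, SE 0.15, adjusted p = 0.0344), became 0, 0 and 5 without *Mettl3* OE replicate 1, 2 and 3, and 0, 1 and 1 without Control OE replicate 1, 2 and 3. The day 6 values of single members show the same spread, with *Mettl3* OE replicate 1 low and Control OE replicate 1 high.

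Among junction genes, *Cldn4* had the largest difference. It read 22.8, 34.5 and 35.8 FPKM in *Mettl3* OE on day 6, against 17.4, 10.8 and 9.11 FPKM in Control OE (log2 1.27, SE 0.25, adjusted p = 0.0307). Every *Mettl3* OE library was above every Control OE library here, and again on day 9, at 96.5, 104 and 87.6 FPKM in *Mettl3* OE against 48.4, 64.2 and 60.1 FPKM in Control OE (log2 0.74, SE 0.19, adjusted p = 0.0422). *Cgn* read 7.73, 9.38 and 8.63 FPKM in *Mettl3* OE on day 6, against 5.02, 3.46 and 2.93 FPKM in Control OE (log2 1.02, SE 0.15, adjusted p = 0.0104). *Crb3* read 10.4, 14.9 and 12.4 FPKM in *Mettl3* OE on day 6, against 6.71, 5.34 and 5.14 FPKM in Control OE (log2 1.00, SE 0.18, adjusted p = 0.0209). Both were clear of Control OE in every library on day 6 and on day 9, when *Crb3* lay at 19.5, 17.7 and 17.5 FPKM in *Mettl3* OE against 9.9, 9.51 and 10.7 FPKM in Control OE. *Cldn7*, by contrast, overlapped on day 6 (9.52, 14.7 and 14.9 FPKM in *Mettl3* OE, 11.3, 6.72 and 5.32 FPKM in Control OE) and was called on day 9, at 29.9, 33.1 and 29.0 FPKM against 17.5, 20.8 and 19.4 FPKM (log2 0.65, SE 0.15, adjusted p = 0.0237). *Ocln* was called on both days (0.69 and 0.67).

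Adhesion molecules differed in direction. *Cdh1* read 45.0, 54.8 and 52.7 FPKM in *Mettl3* OE on day 6, against 38.3, 31.9 and 29.8 FPKM in Control OE (log2 0.60, SE 0.14, adjusted p = 0.0405). On day 9 it was 69.5, 74.5 and 72.4 FPKM in *Mettl3* OE against 43.6, 49.9 and 48.1 FPKM in Control OE (log2 0.60, SE 0.11, adjusted p = 0.00748). The libraries did not overlap on either day, but did on days 12 and 15. *Epcam* read 16.9, 17.3 and 16.6 FPKM in *Mettl3* OE on day 9, against 10.5, 11.8 and 10.03 FPKM in Control OE (log2 0.61, SE 0.15, adjusted p = 0.0301), while on day 6 it overlapped. *Cdh3* was the only member called lower in *Mettl3* OE, on days 6, 9 and 15, and it read 0.358, 0.165 and 0.229 FPKM in *Mettl3* OE on day 6, against 1.25, 1.12 and 0.958 FPKM in Control OE (log2 -0.75, SE 0.11, adjusted p = 0.0108). On day 9 the difference was of similar size (0.516, 0.751 and 0.571 FPKM in *Mettl3* OE, 1.49, 1.91 and 2.07 FPKM in Control OE; -0.81), as on day 15 (2.41, 3.02 and 2.58 FPKM in *Mettl3* OE, 4.53, 4.51 and 6.3 FPKM in Control OE; log2 -0.73, SE 0.12, adjusted p = 0.00263), and in *Mettl3* OE *Cdh3* had no onset above MEFs on any day.

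Regulators were called as well. *Ehf* read 3.84, 6.21 and 5.93 FPKM in *Mettl3* OE on day 6, against 2.31, 2.38 and 1.47 FPKM in Control OE (log2 1.04, SE 0.21, adjusted p = 0.0304). *Ovol1* read 2.23, 4.29 and 3.28 FPKM in *Mettl3* OE on day 6, against 1.69, 1.21 and 1.24 FPKM in Control OE (log2 0.82, SE 0.18, adjusted p = 0.0354). *Esrp1* read 2.78, 4.71 and 4.4 FPKM in *Mettl3* OE on day 6, against 2.24, 1.9 and 1.57 FPKM in Control OE (log2 0.76, SE 0.18, adjusted p = 0.0445). All 3 had no overlap with Control OE on day 6, and the 3 were called on day 9 too, at 0.74, 0.59 and 0.66 on the log2 scale. The plakophilin *Pkp3* read 4.47, 7.1 and 6.59 FPKM in *Mettl3* OE on day 6, against 2.91, 2.55 and 2.04 FPKM in Control OE (log2 1.00, SE 0.19, adjusted p = 0.0264), and the protease inhibitor *Spint1* read 6.28, 8.8 and 8.58 FPKM in *Mettl3* OE on day 6, against 5.16, 3.21 and 2.53 FPKM in Control OE (log2 0.97, SE 0.21, adjusted p = 0.0419). *Esrp2* (0.82) and *St14* (0.77) complete the day 6 calls. On day 9 the further calls were *Spint1* (0.76), *Cgn* (0.73), *St14* (0.71), *Marveld3* (0.66), *Ap1m2* (0.66) and *Cldn6* (0.62), and *Pkp3* passed the adjusted p but not the fold minimum (log2 0.53, SE 0.13, adjusted p = 0.0277). None of *Krt8*, *Krt18*, *Krt19*, *Dsp*, *Pkp1*, *F11r*, *Spint2* or *Elf3* was called between these arms on any day.

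**Figure D5:**
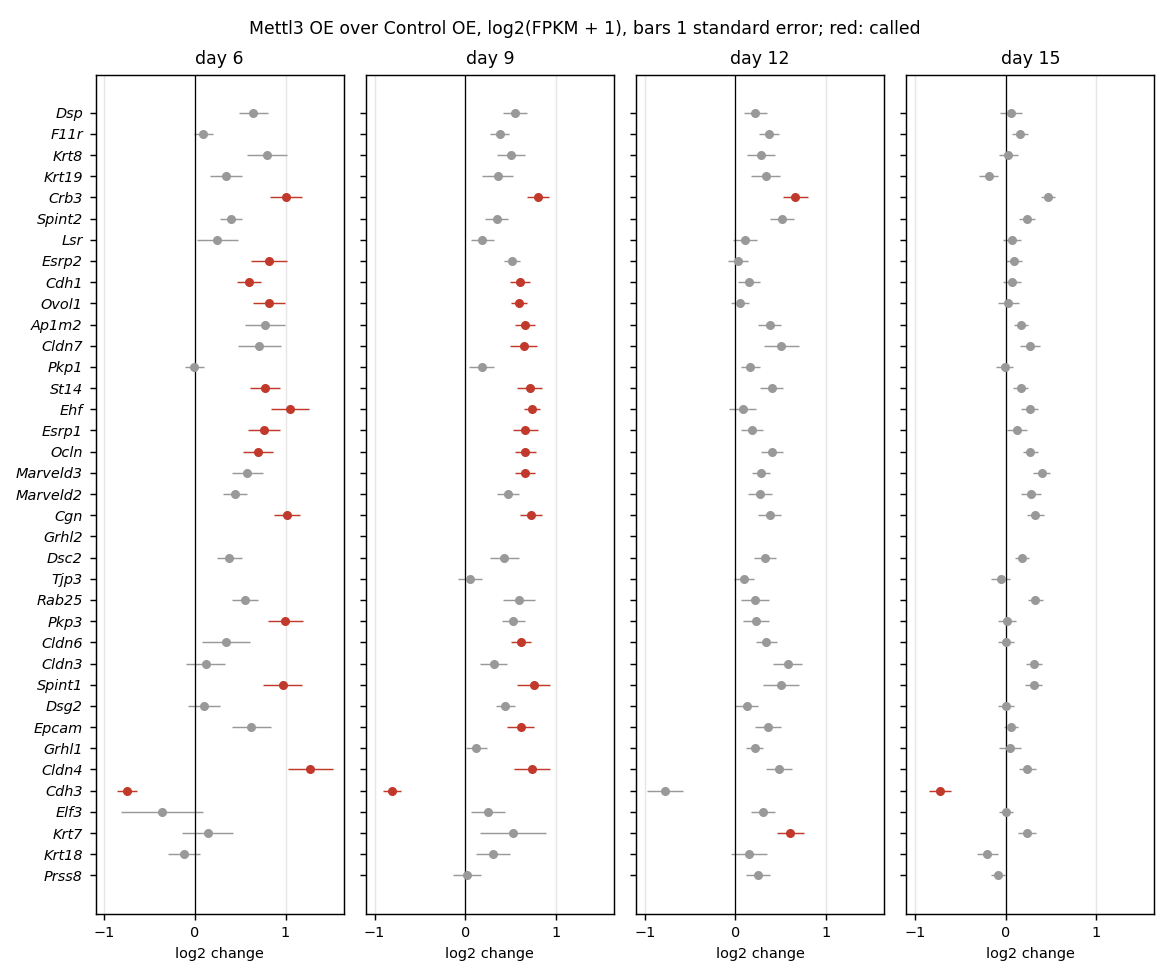
Log2 difference of FPKM + 1, *Mettl3* OE over Control OE, for each member tested on days 6, 9, 12 and 15, with bars of 1 standard error and called members in red. Called members lie to the right of 0 in 12 cases on day 6 and 15 on day 9, and *Cdh3* lies to the left on days 6, 9 and 15.

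Other markers moved along with these differences. The summed level of the 8 fibroblast markers was 489 to 795 FPKM in *Mettl3* OE on day 6, against 999.7 to 1299 FPKM in Control OE, and on day 9 1429 to 1578 FPKM in *Mettl3* OE against 1957 to 2334 FPKM in Control OE. All 8 had a negative difference on day 6 (median -0.88), with *Col1a1* (-0.91) and *Col1a2* (-1.02) called. On day 9 *Col3a1* (-0.72), *Dcn* (-0.82) and *Lum* (-0.92) were called lower. The 9 keratinocyte markers summed to 569 to 887 FPKM in *Mettl3* OE on day 6, against 363 to 518 FPKM in Control OE, and to 780.2 to 895 FPKM in *Mettl3* OE against 529.7 to 595 FPKM in Control OE on day 9, with *Krt6a* called on day 6 (1.80) and *Krt16* on day 9 (0.87). Among those tested, 5 of 6 had a positive difference on day 6 and 5 of 7 on day 9. *Sbsn* was lower on day 9 (-0.40), passing the adjusted p but not the fold minimum. Of the trophoblast markers, *Tfap2c* was called higher on day 6 (0.74), and *Elf5* on day 9 passed the adjusted p but not the fold minimum (0.57). The other trophoblast markers tested on day 6, *Gata3* (-0.16) and *Elf5* (-0.06), had negative differences that were not called. On day 9 *Gata3* (-0.09) and *Tfap2c* (0.39) were not called. Of the primitive endoderm and macrophage markers, *Pdgfra* (-0.71) and *Lyz2* (-0.87) were called lower on day 9. The other macrophage marker tested that day, *Cd68*, had a positive difference (0.29, not called) and was called higher on day 12 (0.59). The part of these cells or transcripts in the members' difference was not tested. Of the genes related to the members, 2 of 7 other epithelial regulators were higher in *Mettl3* OE on day 6 (the membrane transport protein *Mal2*, 0.98, and *Cd24a*, 0.60) and 4 of 9 on day 9, with 1 of 15 tight junction partners and none of the adherens junction and desmosome genes on day 6. On day 15 the 8 pluripotency markers summed to 8.5 to 12.8 FPKM in *Mettl3* OE, against 29.4 to 39.2 FPKM in Control OE, and 6 of 6 tested were called lower. Fibronectin (*Fn1*) was lower on day 6 (-0.79).

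The claudin neighbours diverged between the arms for a time. On day 6 *Cldn3*, unlike *Cldn4*, overlapped, at 7.84, 9.86 and 8.69 FPKM in *Mettl3* OE and 11.7, 7.25 and 5.93 FPKM in Control OE. The ratio of *Cldn4* over *Cldn3* was 2.9, 3.5 and 4.12 in *Mettl3* OE, against 1.49, 1.49 and 1.54 in Control OE. On day 15 it was 2.22, 2.23 and 2.19 in *Mettl3* OE and 2.2, 2.26 and 2.55 in Control OE, which overlap. In *Mettl14* OE it was 1.84, 1.74 and 1.64 on day 6.

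By half-maximum day, *Mettl3* OE came before Control OE in 34 of 37 members, with a median difference of -0.98 days. These members include *Cdh3*, which had the largest difference, -10.27 days. Its half-maximum day in *Mettl3* OE is the MEF point itself, because the MEF mean already passed the level sought. For *Cdh3* the difference therefore does not show an earlier rise. In 25 members the *Mettl3* OE range over left-out libraries lay wholly below that of Control OE. The median half-maximum day was 6.89 in *Mettl3* OE, 8.43 in *Mettl14* OE and 8.23 in Control OE. *Mettl14* OE came before Control OE in 8 of 37 members, and in 15 its range lay above that of Control OE. The 3 arms share the MEF libraries. Called onsets fell on the same day in all 3 arms for 27 of 37 members, and *Grhl2* had none in any arm. *Cldn3*, *Lsr* and *Ehf* were called from day 3 in *Mettl3* OE and from day 6 in *Mettl14* OE and Control OE, *Cgn* from day 3 in *Mettl3* OE and *Mettl14* OE and from day 6 in Control OE, and *Grhl1* and *Marveld2* from day 6 in *Mettl3* OE and from day 9 in the others. *Cldn6* and *Rab25* were called from day 9 in *Mettl14* OE and from day 6 in the others. *Cdh3* had its onset on day 15 in *Mettl14* OE and on day 12 in Control OE. These shifts of onset were not themselves tested. The highest mean was on day 15 for 21 members in *Mettl3* OE, 34 in *Mettl14* OE and 32 in Control OE.

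Between *Mettl14* OE and Control OE, 0 members were called in limma on day 3, 6, 9, 12 or 15, beside 0.0203%, 0.00866%, 0.017%, 0.0168% and 0.223% of all genes called in either direction. At an unadjusted p under 0.05, a looser cut than that of these shares, there were 0, 2, 2, 2 and 12 members. The share of all genes at that cut is not given. The median log2 differences were 0.05, -0.22, -0.11, -0.12 and 0.09, where the median over all genes was -0.11 on day 6 and -0.12 on day 12 on the values as deposited. The *Mettl14* OE mean was the higher one in 19, 2, 6, 7 and 29 of 37 members on these days. All 3 *Mettl14* OE libraries lay above all 3 Control OE libraries in 1, 0, 0, 0 and 13 members. They lay below all 3 in 4, 2, 0, 2 and 0. The share of all genes is not given for these counts, which describe the members only. *Cdh1* read 70.5, 70.1 and 65.0 FPKM in *Mettl14* OE on day 15, against 67.6, 61.4 and 75.2 FPKM in Control OE, and these overlap. *Cldn4* read 165, 171 and 153 FPKM in *Mettl14* OE on day 15, against 141, 137 and 137 FPKM in Control OE, and these do not (log2 0.23, SE 0.09, adjusted p = 0.221). The polarity gene *Crb3* was also apart, passed the adjusted p and missed the fold minimum. It read 17.3, 14.98 and 16.3 FPKM in *Mettl14* OE on day 15, against 11.99, 12.04 and 10.9 FPKM in Control OE (log2 0.44, SE 0.08, adjusted p = 0.0178).

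Set against *Mettl3* OE, *Mettl14* OE was lower in 20 members on day 6 (1.53% of all genes), 19 on day 9 (2.19%) and 4 on day 12 (0.696%), and no member was called on day 3 or 15. *Cldn4* read 8.35, 12.2 and 10.6 FPKM in *Mettl14* OE on day 6, against 22.8, 34.5 and 35.8 FPKM in *Mettl3* OE (log2 -1.48, SE 0.25, adjusted p = 0.0204). *Cdh3* was higher in *Mettl14* OE, at 1.08, 0.8 and 1.15 FPKM on day 6 against 0.358, 0.165 and 0.229 FPKM in *Mettl3* OE (log2 0.68, SE 0.11, adjusted p = 0.0162). The 4 members of day 12 were *Krt7*, *Crb3*, *Cldn4* and *Cgn*. The day 6 count was 1, 20 and 2 without *Mettl14* OE replicate 1, 2 and 3, and 19, 0 and 0 without *Mettl3* OE replicate 1, 2 and 3. On day 9 it stayed between 9 and 25, and on day 12 between 0 and 9.

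Across the 16 group means the members followed one another closely. The correlation of each member with the mean of the others was highest for *Lsr* (0.997) and *Ocln* (0.994), and lowest for *Cdh3* (0.649), *Dsp* (0.675), *Ovol1* (0.72) and *Pkp1* (0.829). It is a description over groups that share days and tables. The 4 lowest are a member that fell first, the desmosome genes that were early, and the factor whose level passed its peak before day 15.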

How the data were processed

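Poly(A) RNA libraries of whole cultures (KAPA stranded mRNA kit) were grouped by the time point and condition of their labels. Per the submitters' processing notes, the authors used TopHat2 2.1.1 and the mm9 build for alignment, and the deposited FPKM values come from Cufflinks 2.2.1. Whether strand was used in counting, and how reads of near-identical copies such as keratin pseudogenes were split, is not given in the sources used here. No counts were used. Depth was estimated from the smallest values of genes whose transcripts are 1500 to 6000 bases long, and limits low members most. Intervals were not formed from it.

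Values were analysed as log2(FPKM + 1) with limma 3.58.1 in R 4.3.3 (mean-variance trend, robust moderation, Benjamini-Hochberg over all genes), keeping a gene when 3 or more libraries entering a fit reached 1 FPKM. Fold changes are of FPKM + 1 and understate those of low genes. Genes were called at a fold of 1.5 and an adjusted p of 0.05. Each day against MEFs, the steps and their differences between arms used all 48 libraries, and arms were compared within the 9 libraries of a day. The fit was tested on simulated data. Tables were handled in pandas 2.3.3 and NumPy 2.4.6 under Python 3.11.15, and figures drawn in matplotlib 3.10.9.

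The members, the lists (other junction genes, epithelial regulators, mesenchymal genes, and keratinocyte, trophoblast, primitive endoderm, pluripotent cell, macrophage, fibroblast and endothelial markers) and the tests were chosen with earlier results of these data known. Described in full were *Cdh1*, *Epcam*, the highest member of each role group on day 15 of Control OE, the 3 earliest and 3 latest members, up to 10 members called between arms, and members without onset. Ratios of *Krt8* to *Krt18* and of *Cldn4* to *Cldn3* and the test of the *Mettl3* OE effect between days were added after the values were seen. Alternatives tried were the pseudocount, the filter, scaling, library weights, an adjusted p alone, a single fit of all libraries, a replicate block and leaving out each library. Values of some genes on these lists are not reported here.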

Additional observations from a re-analysis of the deposited data

Results flagged for a closer look

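The difference between *Mettl3* OE and Control OE was larger on day 6 than on day 15 in 10 of 36 members, by a limma test of the difference between the 2 effects over all 48 libraries that was chosen after the values were seen. Of all genes, 3.86% were called in either direction. The 2 days lie in different tables of the deposited file, and each effect was taken within its own table. The excess of the day 6 effect was 1.033 for *Cldn4*, 0.986 for *Pkp3*, 0.787 for *Ovol1*, 0.779 for *Ehf*, 0.761 for *Krt8*, 0.728 for *Esrp2*, 0.687 for *Cgn*, 0.634 for *Esrp1*, 0.608 for *St14* and 0.605 for *Ap1m2*, all on the log2 scale, with adjusted p of 0.00218 to 0.0447. For *Krt8* and *Ap1m2* the day 6 effect itself was not called. The *Krt8* libraries were 331, 486 and 467 FPKM in *Mettl3* OE on day 6, against 239, 250.2 and 239.8 FPKM in Control OE, and 387, 451 and 392.1 FPKM in *Mettl3* OE on day 15, against 432, 376 and 395 FPKM in Control OE. The count was 4 with a pseudocount of 0.1 and 4 without *Mettl3* OE day 6 replicate 2, and it ran to 18 with library weights, and *Pkp3* was called under every alternative. Set against day 9 in place of day 6, 0 members were called in limma, beside 1.16% of all genes.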

How the results depend on the processing

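Of 87 gene comparisons called between arms, 1338 alternative values were computed: 973 kept the call, 365 lost it and 0 changed direction. The 87 include the calls of the test between days 6 and 15, which was chosen after the values were seen. Counts of members moved more, and the cause was not tested. With a pseudocount of 0.1 the members higher than MEFs on day 3 were 28 in place of 11 after scaling and 28 in place of 10 as deposited in Control OE, 27 in place of 10 in *Mettl14* OE and 27 in place of 11 in *Mettl3* OE. A pseudocount of 0.5 gave 20 and 16 in Control OE. With an adjusted p and no fold minimum, *Mettl3* OE exceeded Control OE on day 15 in 7 members (0 before), *Mettl14* OE exceeded Control OE in 1 over the 5 days (0 before), and the rises from day 12 to 15 numbered 6 in Control OE (2 before), 22 in *Mettl14* OE (9 before) and 3 in *Mettl3* OE (0 before). Without a filter, *Mettl3* OE exceeded Control OE in 3 members on day 6 (12 before), 0 on day 12 (2 before) and 15 over the 5 days (29 before), and *Mettl14* OE was below *Mettl3* OE in 27 over the 5 days (43 before). A filter at 5 FPKM gave 7 on day 6, 0 lower over the 5 days (3 before), 0 members higher in *Mettl14* OE than in *Mettl3* OE (2 before) and 1 rise from day 12 to 15 in Control OE. Library weights gave 21 on day 6, 0 on day 12, 4 rises from day 12 to 15 in Control OE and 2 members with a smaller step from day 6 to 9 in *Mettl3* OE than in Control OE (0 before). Median-ratio scaling gave 28 members lower in *Mettl14* OE than in *Mettl3* OE and 5 rises from day 12 to 15 in *Mettl14* OE. Quantile normalization gave 3 such rises, 1 member higher in *Mettl14* OE than in *Mettl3* OE and 1 in *Mettl3* OE than in Control OE on day 12, as did a single fit of all 48 libraries on that day.

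Leaving out 1 library at a time, *Mettl3* OE exceeded Control OE in 0 to 15 members on day 6, 6 to 16 on day 9, 0 to 5 on day 12 and 17 to 32 over the 5 days. *Mettl14* OE was below *Mettl3* OE in 23 to 49 and above it in 1 to 2, and 5 to 10 members rose from day 12 to 15 in *Mettl14* OE. Libraries were not paired by replicate number in the main fits, and whether equal numbers share a batch is not known. Correlations of deviations between libraries of equal number ran from -0.301 to 0.341 between arms (9 of 45 over 0.1) and from -0.269 to 0.104 between steps (1 of 18). A replicate block moved *Mettl14* OE below *Mettl3* OE to 21 members on day 6 (20 before) and 18 on day 9 (19 before), added 1 member lower in *Mettl3* OE than in Control OE on day 12 (4 in place of 3 over the 5 days), and changed no other count. Depth limits the low members most: 1 fragment on a 2 kb transcript is worth up to 0.0386 FPKM, close to many MEF values.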
